A study of Mus musculus with 4 samples.

Results

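The claudin genes described here were *Cldn1*, *Cldn3*, *Cldn4*, *Cldn5*, *Cldn6*, *Cldn7*, *Cldn8*, *Cldn10*, *Cldn11* and *Cldn12*, 10 of the 21422 protein-coding genes that could be placed with a strand on the mouse genome build GRCm38. They were chosen by name, and the open regions at their 5′ ends, inside them and within 50 kb of them were taken from 1 list of ATAC-seq regions. *Cldn5*, known from blood vessels, and *Cldn11*, known from myelin and testis, were set against the other 8, which are known from epithelia.

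ATAC-seq marks stretches of DNA that the Tn5 transposase can reach. The study grew organoids of mouse submandibular salivary gland (mSGOs) from female C57BL/6 mice. All organoids used here were non-irradiated and kept in Matrigel with WRY medium, which supplies Wnt3a and R-spondin1. For ATAC-seq the study names the younger of the organoid stages it compared, whereas the sample titles give no day of culture. Of the 4 samples, 2 were of passage 1 and 2 of passage 2, and by the labels each passage held 1 sample whose donor animal was 12 weeks old and 1 whose donor animal was 3 months old, labels that may describe nearly the same age. The deposited list names no sample and was taken to pool them, although which samples entered it is not stated. It holds 32011 distinct regions on 69545 lines, 1 line for each summit. A region therefore had 1 value and no replicate, depth by sample was unknown, and no passage or age could be compared with another. In a bulk list a site that is closed in most cells and a site whose cells are few cannot be told apart.

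Claudins are proteins that cross the cell membrane several times and line up in strands between neighbouring epithelial or endothelial cells and make the tight junction. Some tighten the seal, whereas others form pores that let selected ions through, and the set of claudins in a cell layer sets how leaky it is and to what. In salivary glands this matters for the passage of salt and water between and across acinar and duct cells. Occludin, tricellulin and the zonula occludens scaffold proteins work at the same junction.

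To show what lies at the 5′ ends, the 250 bases before the start of 6 members were read 5′ to 3′ on the gene's strand, from RefSeq promoter windows of GRCm38.p6. Capitals mark bases that lie inside a listed region. *Cldn12*, *Cldn4* and *Cldn1* were chosen as members with a region there, and *Cldn5*, *Cldn11* and *Cldn7* as members without one. The windows are chr5:5514977-5515226 on the minus strand for *Cldn12*, chr5:134946935-134947184 on the minus strand for *Cldn4* and chr16:26371840-26372089 on the minus strand for *Cldn1*. They are chr16:18776597-18776846 for *Cldn5*, chr3:31149670-31149919 for *Cldn11* and chr11:69964529-69964778 for *Cldn7*, all on the plus strand.
Cldn12: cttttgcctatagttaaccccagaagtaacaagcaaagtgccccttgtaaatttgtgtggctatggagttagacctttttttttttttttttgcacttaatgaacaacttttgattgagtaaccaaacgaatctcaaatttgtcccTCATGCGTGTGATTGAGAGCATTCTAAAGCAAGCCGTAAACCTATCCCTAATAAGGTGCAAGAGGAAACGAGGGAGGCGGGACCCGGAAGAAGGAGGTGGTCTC
Cldn4: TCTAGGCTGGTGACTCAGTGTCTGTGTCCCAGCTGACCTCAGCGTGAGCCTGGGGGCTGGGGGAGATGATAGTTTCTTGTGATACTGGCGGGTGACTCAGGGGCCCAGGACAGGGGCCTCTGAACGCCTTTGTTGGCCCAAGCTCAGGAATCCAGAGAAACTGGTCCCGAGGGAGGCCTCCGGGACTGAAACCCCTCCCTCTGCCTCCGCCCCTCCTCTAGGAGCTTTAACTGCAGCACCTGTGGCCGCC
Cldn1: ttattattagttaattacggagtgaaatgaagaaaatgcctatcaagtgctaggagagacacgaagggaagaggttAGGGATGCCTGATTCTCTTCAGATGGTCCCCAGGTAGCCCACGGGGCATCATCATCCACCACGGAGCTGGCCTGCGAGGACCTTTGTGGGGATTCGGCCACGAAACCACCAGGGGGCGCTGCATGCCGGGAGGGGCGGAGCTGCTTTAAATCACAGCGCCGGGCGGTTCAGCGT
Cldn5: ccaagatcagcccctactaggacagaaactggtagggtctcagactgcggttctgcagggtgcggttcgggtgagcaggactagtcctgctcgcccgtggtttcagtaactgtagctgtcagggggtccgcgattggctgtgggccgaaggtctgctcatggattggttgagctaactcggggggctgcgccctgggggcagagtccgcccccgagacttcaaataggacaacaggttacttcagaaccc
Cldn11: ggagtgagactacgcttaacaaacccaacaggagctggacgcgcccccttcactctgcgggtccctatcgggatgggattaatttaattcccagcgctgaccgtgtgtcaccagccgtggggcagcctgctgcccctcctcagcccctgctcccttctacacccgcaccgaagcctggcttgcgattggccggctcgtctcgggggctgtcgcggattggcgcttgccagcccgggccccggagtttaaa
Cldn7: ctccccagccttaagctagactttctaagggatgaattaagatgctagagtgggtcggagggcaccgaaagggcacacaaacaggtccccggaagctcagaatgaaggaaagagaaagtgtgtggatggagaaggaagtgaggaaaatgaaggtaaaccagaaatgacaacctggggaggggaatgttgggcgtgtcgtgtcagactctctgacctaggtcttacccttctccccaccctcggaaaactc

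The 5′ ends of 5 of the 10 claudin genes had a region centred no more than 1 kb away, against 38.3% of all protein-coding genes. These were *Cldn1*, *Cldn3*, *Cldn4*, *Cldn8* and *Cldn12*, so 5 of the 8 epithelial claudins and 0 of the other 2 had an open 5′ end. A region midpoint lay inside the gene body of 5 members as well, *Cldn1*, *Cldn4*, *Cldn6*, *Cldn10* and *Cldn12*, against 39.5% of all genes. *Cldn5*, *Cldn7* and *Cldn11* had a region at neither place. With 50 kb added on either side, all 10 members had at least 1 region, against 78.5% of all genes. The list gives no spread between samples, only *Cldn5* and *Cldn11* stood against the epithelial claudins, and no test was made.

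The windows of 50 kb held 46 distinct regions, and 5 of them fell in the windows of both *Cldn3* and *Cldn4*. The number for a gene ran from 2 at *Cldn12* to 11 at *Cldn6* with a median of 4.5, where the median over all protein-coding genes was 3 (quartiles 1 and 5). The claudin genes were short, with a median length of 3103.5 bp against 17557.5 bp over all genes, so their gene bodies offered less room for a region. Of the 46 regions, 8 lay at the 5′ end of a member or in a member, 12 lay at the 5′ end of another protein-coding gene, and 20 had a member as the nearest protein-coding 5′ end. The fold of signal over the local background, which the authors' peak caller gave to each summit, ranged from 3.80 to 17.25 over these regions with a median of 6.62. Over all regions of the list the median fold was 7.11, so the neighbourhood of the claudin genes held regions of ordinary strength with a few strong ones. An IDR score of 1000, the highest that the pipeline gives for reproducibility (irreproducible discovery rate), was held by 20 of the 46 (43.5%) and to 45.1% of all regions.

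**Figure D1:**
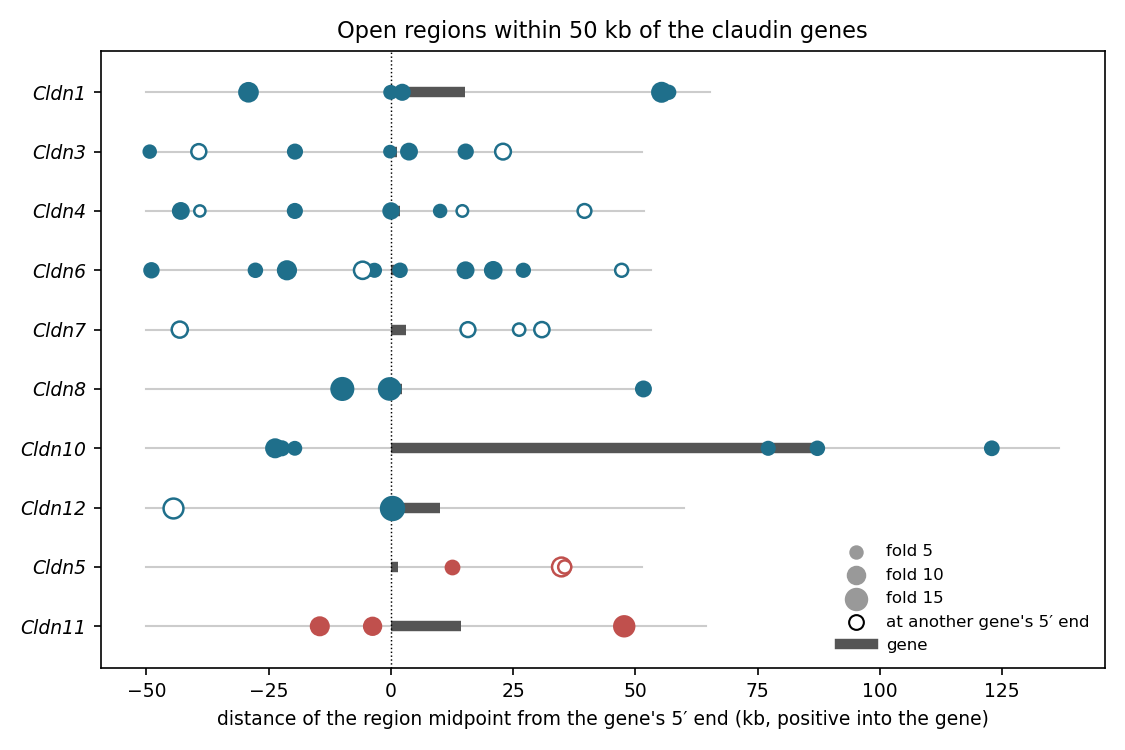
Midpoints of the listed regions within 50 kb of each claudin gene by distance from its 5′ end in kb, with circle size for fold, open circles for regions at the 5′ end of another gene, dark bars for the genes, blue for the 8 epithelial members and red for *Cldn5* and *Cldn11*. Circles sit on the dotted line for 5 of the 8 epithelial members and for neither red gene, and all 4 circles of *Cldn7* are open.

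*Cldn12* (chr5:5505015-5514976, minus strand) encodes an atypical claudin linked to paracellular calcium transport. Its region, chr5:5514394-5515080, had the highest fold of all 46, 17.25 with an IDR score of 1000, and 97.9% of the 8171 regions at protein-coding 5′ ends had a lower fold. It spanned 687 bp and held 4 summits. The strongest summit lay 70 bp inside the gene, and the next, of fold 10.46, lay 193 bp inside it. All 3 starts that RefSeq lists for *Cldn12*, which lie within 187 bp of each other, fell in this region. The only other region within 50 kb, of fold 12.96, lay at the 5′ end of *Gtpbp10*, so no listed region in the window of *Cldn12* was away from a 5′ end.

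*Cldn8* (chr16:88560826-88563183, minus strand) encodes a barrier claudin of tight epithelia, known from the kidney collecting duct. The region at its 5′ end, chr16:88563078-88563814, had a fold of 14.74, above 94.0% of regions at 5′ ends, and an IDR score of 1000. Unlike that of *Cldn12*, it leaned to the upstream side, with its strongest summit 379 bp before the 5′ end. Further summits lay 514 bp before it with a fold of 9.76 and 166 bp before it with a fold of 9.60. A second strong region, chr16:88572632-88573618, stood 9.94 kb upstream with 5 summits, and its fold of 15.33 was above that of 97.3% of all regions in the list. No protein-coding gene lay between this region and *Cldn8*, whose nearest neighbours were *Krtap24-1* at 47526 bp and *Cldn17* at 53848 bp. The third region of the window, chr16:88511314-88511772 with a fold of 6.87, lay nearer to the 5′ end of *Cldn17*. *Cldn8* was thus the member with a strong 5′ end and a strong region close by and apart from other genes.

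*Cldn4* and *Cldn3* are neighbours on chromosome 5, 39280 bp apart and transcribed away from each other. *Cldn4* (chr5:134945123-134946934, minus strand) encodes a sealing claudin of duct-like epithelia that lowers sodium permeability. Its 5′ region, chr5:134946555-134947281, had a fold of 7.35, which is in the middle of regions at 5′ ends (42.9% were lower), and an IDR score of 1000. The strongest of its 3 summits lay 163 bp before the 5′ end, and a weaker one of fold 4.70 lay 44 bp before it. *Cldn3* (chr5:134986214-134987476, plus strand) encodes a sealing claudin found in many epithelia. Its region, chr5:134985732-134986298, had the lowest fold of the 5 at claudin 5′ ends, 4.10, which only 2.24% of regions at 5′ ends fell below, and an IDR score of 700. Both of its summits were weak, with folds of 4.10 at 2 bp and 4.04 at 315 bp before the 5′ end. The gene at its far side from *Cldn4*, *Abhd11*, had a region of fold 8.12 at its own 5′ end, the strongest in the window of *Cldn3*. Away from 5′ ends, chr5:134989718-134990098 lay 2432 bp past the end of *Cldn3* with a fold of 7.77 and an IDR score of 998. Another, chr5:134966278-134966893, lay in the interval between both genes, 19.6 kb upstream of *Cldn3*, with a fold of 6.10. On the other side of *Cldn4*, regions at the 5′ ends of *Mettl27* and *Tmem270* had folds of 4.35 and 6.21, and 1 inside *Mettl27* had a fold of 4.72. The 5 regions that both windows shared thus included each gene's own 5′ end, and none of them reached the fold of the region at *Abhd11*.

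*Cldn1* (chr16:26356645-26371839, minus strand) encodes the claudin whose loss breaks the skin barrier, and it is found in basal as well as luminal epithelial cells. The region at its 5′ end, chr16:26371767-26372013, was the narrowest of the 5 at 247 bp, with a fold of 5.07, above 10.7% of regions at 5′ ends, and an IDR score of 593. Its strongest summit lay 1 bp before the 5′ end. Around this weak 5′ region lay 4 others, and each of the 5 had *Cldn1* as its nearest protein-coding 5′ end. Inside the gene, 2.32 kb from the 5′ end, chr16:26369339-26369708 had a fold of 7.03. Upstream by 29.1 kb, chr16:26400561-26401392 spanned 832 bp with a fold of 10.89 and an IDR score of 1000. Past the end of the gene, chr16:26316241-26316740 had the highest fold of the window, 11.28, at 55.3 kb from the 5′ end, and a weaker region of fold 5.40 lay 56.8 kb from it. All 4 other regions at *Cldn1* thus had a higher fold than its 5′ end, and the nearest neighbour genes, *Cldn16* and *P3h2*, were 91296 and 250832 bp away.

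**Figure D2:**
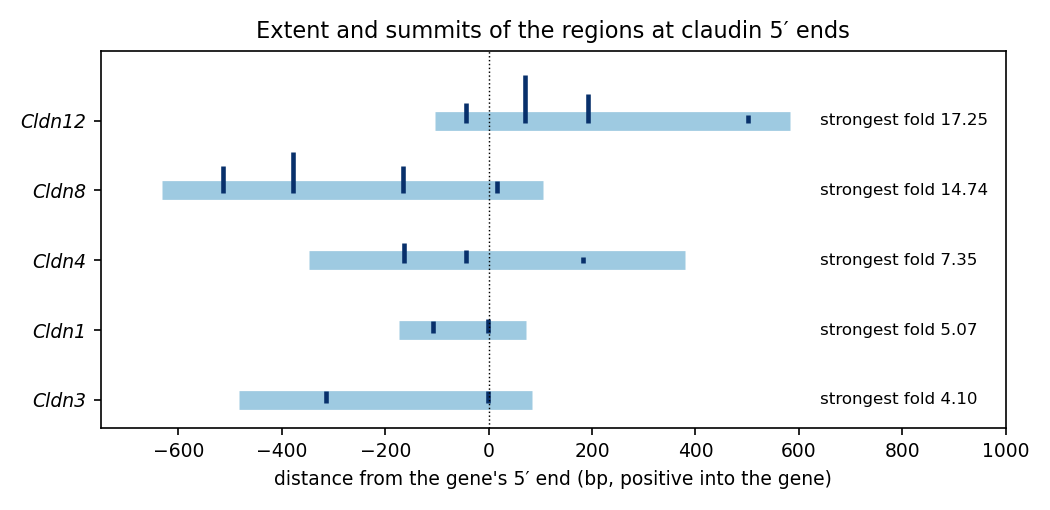
Extent (light bars) and summits (dark ticks, height in proportion to fold) of the 5 regions at claudin 5′ ends, in bp from the 5′ end and positive into the gene. The strongest summit lies 70 bp inside *Cldn12* but 379 bp upstream of *Cldn8* and 163 bp upstream of *Cldn4*.

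**Figure D3:**
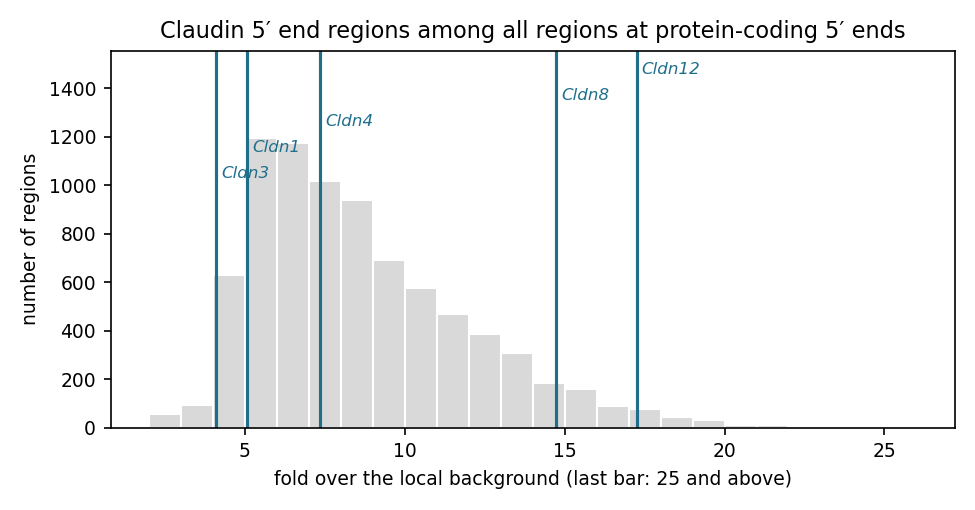
Histogram of fold over the local background for the 8171 regions at protein-coding 5′ ends, with a line for the region at each of 5 claudin 5′ ends. *Cldn12* at 17.25 and *Cldn8* at 14.74 lie in the upper tail, *Cldn4* at 7.35 near the median of 7.90, and *Cldn1* at 5.07 and *Cldn3* at 4.10 in the lower tail.

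The 5 regions at claudin 5′ ends were thus spread from the lower to the upper tail of folds at 5′ ends, with 2.24 to 97.9% of such regions below them, and 3 of them (*Cldn4*, *Cldn8* and *Cldn12*) had the highest IDR score. In the −log10 of the q-value they ran from 11.3 at *Cldn3* and 13.8 at *Cldn1* over 41.6 at *Cldn4* to 104.9 at *Cldn8* and 126.8 at *Cldn12*; this order was that of the folds. Their widths of 247 to 737 bp stood beside a median of 455 bp for regions at all protein-coding 5′ ends. No error could be given for these folds.

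Of the 3 epithelial claudins without a region at the 5′ end, *Cldn10* encodes ion pores of either charge, depending on which first exon is used, and is known from salivary acinar cells. *Cldn10* spanned 86655 bp at chr14:118787871-118874525 on the plus strand, by far the longest member. The nearest region to its outermost 5′ end lay 19.7 kb upstream, and the second start that RefSeq lists, 67.1 kb further into the gene, had its nearest region 10.1 kb away. That region, chr14:118864815-118865245, was the only one in the gene, with a fold of 5.24 and an IDR score of 600. Upstream stood 3 regions between 19.7 and 23.7 kb from the outermost 5′ end, of which chr14:118763996-118764372 had the highest fold of the window, 10.11, and an IDR score of 1000. Their nearest protein-coding 5′ end was that of *Cldn10*. A region of fold 5.57 lay 559 bp past the end of the gene and 1 of fold 5.78 lay in *Dzip1*. Neither listed start of *Cldn10* thus had a region within 1 kb, although regions lay before, in and after the gene.

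*Cldn6* (chr17:23679348-23682446, plus strand) encodes a claudin of embryonic and progenitor epithelia. It had no region within 1 kb of its 5′ end, but chr17:23681008-23681411 lay inside the gene, 1.86 kb from the 5′ end, with a fold of 5.57 and an IDR score of 930. The window of *Cldn6* held 11 regions, more than those of 98.1% of protein-coding genes. Most of these lay at or in other genes, and only the region inside *Cldn6* had *Cldn6* as its nearest 5′ end. The highest fold, 10.29, belonged to chr17:23657791-23658363 inside *Bicdl2*, and a region of fold 9.79 lay at the 5′ ends of *Hcfc1r1* and *Thoc6*. *Cldn9*, a claudin known from the inner ear whose gene lies 138 bp past the end of *Cldn6*, had no region at its 5′ end either. Regions of fold 7.82 and 8.58, both with an IDR score of 1000, lay 15.3 and 20.9 kb from the 5′ end of *Cldn6* and nearest to that of *Cldn9*. The remaining regions had folds of 3.80 to 6.36, the lowest being chr17:23675226-23675636 inside *Hcfc1r1*. Of the 11 regions, 2 lay at the 5′ ends of other genes and 9 at no protein-coding 5′ end. The count at *Cldn6* was thus a count for a window that also holds other genes.

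*Cldn7* (chr11:69964779-69967886, plus strand) encodes a claudin that also sits along the basolateral membrane, where it binds Epcam. None of its 4 regions lay in the gene, and the nearest was 15.8 kb away. Each of the 4 lay at the 5′ end of other genes: *Eif5a* with a fold of 8.51, *Phf23* with 7.59, *Ctdnep1* and *Elp5* with 7.26, and *Gabarap* with 4.97. The second start listed for *Cldn7*, 642 bp into the gene, had no region within 1 kb either. *Cldn7* was the single member whose window held no region apart from the 5′ ends of its neighbours.

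*Cldn5* (chr16:18776847-18778262, plus strand) encodes the main claudin of endothelial cells and of the blood-brain barrier. Its nearest region, chr16:18789079-18789640, lay 12.5 kb downstream of the 5′ end, inside *Cdc45*, with a fold of 5.82. The other regions of its window, of fold 11.62 and 5.66, both lay at the 5′ ends of *Cdc45* and *Ufd1*, genes of DNA replication and of protein degradation. No region lay upstream of *Cldn5* within 50 kb.

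*Cldn11* (chr3:31149920-31164326, plus strand) encodes the claudin of myelin sheaths and of the Sertoli cell barrier. It differed from *Cldn5* in that its 3 regions had *Cldn11* as their nearest protein-coding 5′ end and lay at no 5′ end of another gene. The closest, chr3:31146013-31146317, lay 3.75 kb upstream with a fold of 9.32, and chr3:31135232-31135502 lay 14.6 kb upstream with a fold of 10.11. Past the end of the gene, chr3:31197339-31197924 had a fold of 13.05, above 93.3% of all regions. All 3 had an IDR score of 1000. The 5′ end of *Cldn11* without a region thus stood among regions whose fold was above that of 74.8 to 93.3% of the list, while at *Cldn5* the strongest region lay at the starts of neighbouring genes.

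The labels call the samples salivary gland cells, and the tissue was checked with genes that define epithelium, endothelium and Sertoli cells with other testis cells. Open 5′ ends were listed for 8 of 12 epithelial markers (66.7%), beside 38.3% of all protein-coding genes. These included *Epcam*, *Cdh1*, *Krt5*, *Krt14* and *Krt8*, whereas *Krt18*, *Krt7*, *Krt19* and *Trp63* had none there. The region at *Krt5* was weak, with a fold of 2.95 that only 0.71% of regions at 5′ ends fell below. IDR scores were 565 at *Krt5*, 610 at *Krt8* and 639 at *Epcam*, and 1000 at *Cdh1* and *Krt14*. A region lay in the gene for 6 of the 12 epithelial markers, and *Trp63* held 7. Of 10 endothelial markers, *Pecam1*, *Cdh5* and *Kdr* among them, 0 had an open 5′ end, while 4 had a region in the gene, near the 39.5% of all genes. Of 10 markers of Sertoli cells and testis, 0 had an open 5′ end and 1, *Dhh*, had a region in the gene. The 5′ ends of *Cldn5* and of the endothelial markers were thus alike in having no listed region. Those of *Cldn11* and of the markers of Sertoli cells and testis shared this. The same held for *Cldn6*, *Cldn7*, *Cldn10*, *Krt18*, *Krt7*, *Krt19* and *Trp63*. Most protein-coding genes had none there either, so this absence did not set *Cldn5* and *Cldn11* apart. A region at a 5′ end was not used here as a measure of transcription, which the list does not hold.

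The family beyond the 10 members was mostly without regions at 5′ ends. Of 13 other claudin genes found in the gene table, 1 had a region there (7.69%), beside 38.3% of all protein-coding genes. This was *Cldn23*, whose region, chr8:35826092-35827024, had a fold of 5.24. The 12 without one were *Cldn2*, *Cldn9*, *Cldn13*, *Cldn14*, *Cldn15*, *Cldn16*, *Cldn17*, *Cldn18*, *Cldn19*, *Cldn20*, *Cldn22* and *Cldn24*. *Cldn25* was not analysed here. The 13 genes were not sorted by tissue, so the 62.5% of the 8 epithelial members does not stand for all claudins of epithelia. All 13 had at least 1 region within 50 kb, with a median of 3, equal to that of all genes. Among 25 other tight junction genes the 5′ end was open at 14 (56.0%), beside the same 38.3% of all genes. The strongest were *Magi3*, a scaffold protein, with a fold of 12.89, *Amotl1*, an angiomotin family protein, with 11.71, and *Lsr*, the angulin of tricellular junctions, with 10.82. Occludin (*Ocln*), tricellulin (*Marveld2*), *Marveld3* and the scaffold gene *Tjp3* had no region at the 5′ end. In the gene, *Ocln* held 3 regions, *Marveld3* 2, *Marveld2* 1 and *Tjp3* 0. *Tjp1*, *Cgn* and *Cgnl1* had none at the outermost 5′ end but had one at another listed start, which raised the count to 17 of 25, where the share over all genes was 41.8%. For the 10 members, counting any listed start left the number at 5.

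**Figure D4:**
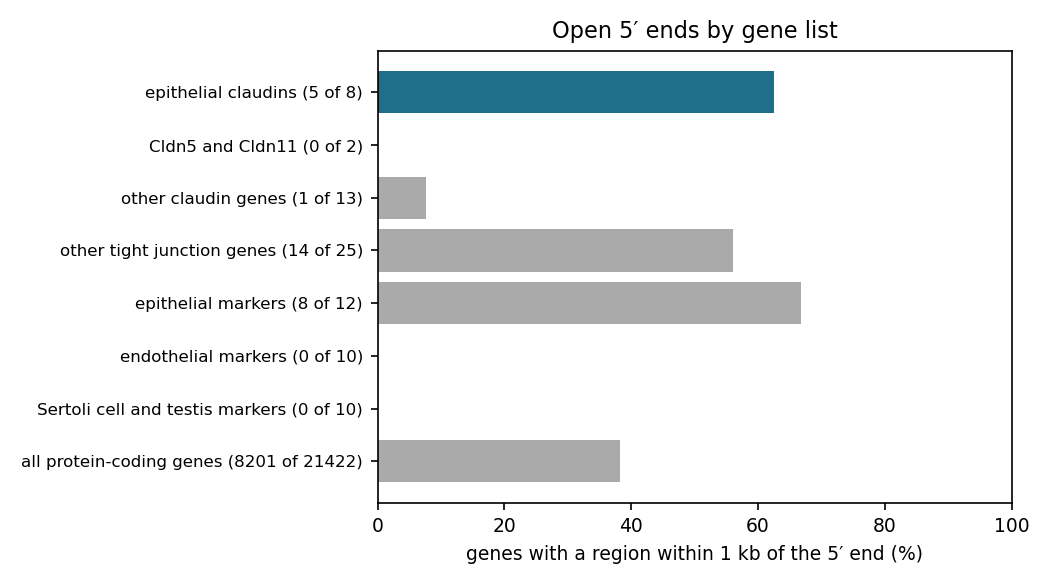
Share of genes in each list with a region midpoint within 1 kb of the 5′ end, in percent, with counts in the row labels. The bars are longest for epithelial markers (66.7%) and the 8 epithelial claudin members (62.5%). They are absent for *Cldn5* and *Cldn11*, endothelial markers and markers of Sertoli cells and testis. The 13 other claudin genes, not sorted by tissue, stand at 7.69% and all protein-coding genes at 38.3%.

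The promoter windows were then read for their base content, since many mammalian promoters lie in stretches rich in CG dinucleotides. A window was in the RefSeq table for 9 of the 10 members, not for *Cldn8*. Over all genes, 64.5% of the 7912 promoters with an observed over expected CG ratio of at least 0.6 had a region at the 5′ end, against 17.4% of the 9578 below it. The median ratio was 0.77 for promoters with a region and 0.30 for those without. Among the claudin genes the ratios with and without a region overlapped. *Cldn11* had the highest ratio of the 9, 0.76 with 19 CG, and no region. *Cldn4* had the lowest, 0.29 with 7 CG, and a region with the highest IDR score. *Cldn1* reached 0.74 and had the second lowest fold at its 5′ end, while *Cldn12*, with the highest fold, had 0.55, the same as *Cldn5*. The other ratios were 0.50 for *Cldn6*, 0.49 for *Cldn10*, 0.44 for *Cldn3* and 0.38 for *Cldn7*. So 7 of the 9 claudin promoters lay below 0.6, and 3 of these 7 had a region.

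**Figure D5:**
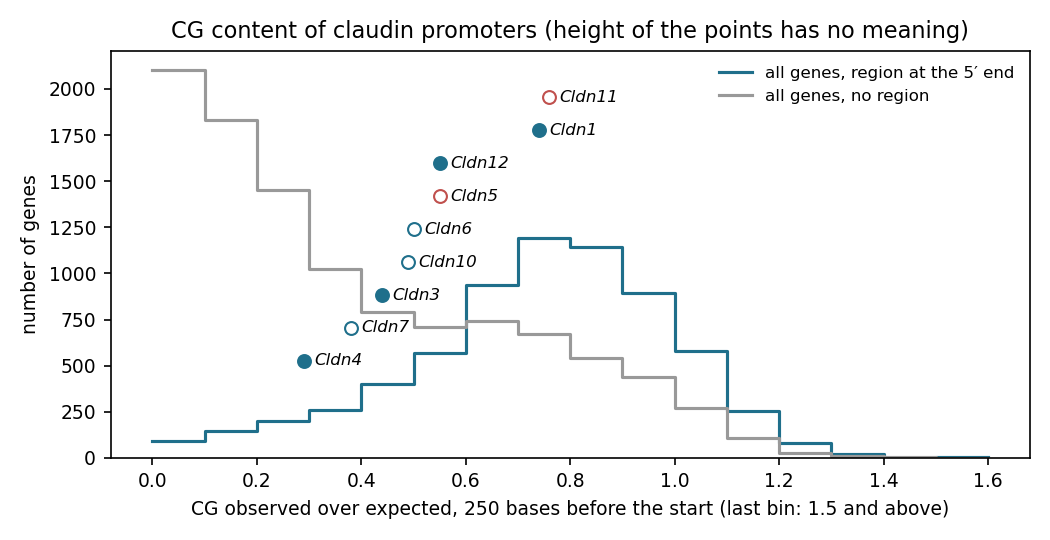
Observed over expected CG ratio in the 250 bases before the start, as numbers of genes with (blue line) and without (grey line) a region at the 5′ end, and as circles for 9 claudin genes, filled where a region was listed and red for *Cldn5* and *Cldn11*; the height of a circle has no meaning. The open red circle of *Cldn11* lies farthest right at 0.76 and the filled circle of *Cldn4* farthest left at 0.29.

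In the same windows, 10 short motifs were searched by letters on both strands, with N for any base. The AP-1 motif TGANTCA was in 6.18% of all 17491 promoters and, among the claudin genes, in that of *Cldn4* alone. There it occurred as TGACTCA 2 times, its first base 240 and 158 bases before the start, and the strongest summit of the *Cldn4* region lay 163 bp before the 5′ end. In the printed sequence of *Cldn4* both copies stand in capitals, inside the region. GGGCGG, the GC box of SP and KLF factors, was in 42.7% of promoters and in those of *Cldn1*, *Cldn3*, *Cldn4*, *Cldn5* and *Cldn6*. *Cldn1* held it 42 and 14 bases before the start, inside its narrow region.

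CCAAT, the NF-Y motif, was in 36.5% of promoters and, among the 9 claudin windows, in those of *Cldn5*, *Cldn10* and *Cldn11*. ACAAAG, a SOX motif, was in 14.9% of promoters and in those of *Cldn1*, *Cldn4* and *Cldn10*. GGAATG, a TEAD motif, was in 11.6% and in that of *Cldn7*, 70 bases before the start. AACCNGTT, a Grainyhead motif, was in 1.76% and in that of *Cldn5*, 20 bases before the start. The RUNX letters TGTGGT (12.4% of promoters), the AP-2 letters GCCNNNGGC (15.9%), the FOX letters TGTTTAC (2.57%) and the TATA box TATAAA (12.4%) were in none of the 9 windows. Such short motifs occur often by letters alone, and a match describes the sequence and not the binding of a factor.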

How the data were processed

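ATAC-seq libraries of 4 mSGO samples were made with the Nextera kit and read as 75 bp pairs on a NextSeq 500. Alignment and peaks came from the authors' run of the ENCODE ATAC-seq pipeline, and the deposited list was taken to be their consensus over all samples, although neither its lines nor its distinct regions match the size the study states for that file; version and filters are not given in the sources used here. For every summit the deposited list gives an IDR score, the fold (a ratio to local background signal) and the q-value as −log10, as the authors' peak caller wrote them; its column of p-values was not used. Depth by sample is unknown, and these values only rank regions within the list.

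Lines with the same ends were joined into 1 region with the values of its strongest summit (lowest q-value), and regions were placed by midpoint. The submitters' processing notes name GRCm39 and HOMER, but the list was read as GRCm38: a region lay within 1 kb of 38.3% of 5′ ends in GRCm38.p6 and of 5.04% in GRCm39, and regions ran past the GRCm39 end of 8 of 21 chromosomes. Gene positions came from a RefSeq table of GRCm38.p6. Strand came from the RefSeq promoter table of that build for 17491 genes and, by name and chromosome, from GENCODE mouse release 39 for 3931, *Cldn8* included, which gave 21422 of 21883 protein-coding genes. Exons, proteins and sequence outside the promoter windows were not used here. Starts of other transcripts, planned by distance from another build, were read directly in GRCm38.p6.

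The members, gene lists and motifs were chosen with earlier results of these data known. All 10 members are described, each with its 5′ region and its strongest regions; for the other lists the 3 tight junction genes of highest fold, the only other claudin gene with a 5′ region and claudin neighbours are named, and further genes were named after their values were seen. Alternatives changed the distance, the placing of a region, the gene ends and the regions kept. A list of myelin cell markers is not reported here. The counting functions were tested on simulated data. Analyses used pandas 2.3.3, numpy 2.4.6, matplotlib 3.10.9 and scipy 1.17.1 under Python 3.11.15.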

Additional observations from a re-analysis of the deposited data

How the results depend on the processing

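The number of claudin genes with a region at the 5′ end, 5, stayed at 5 within 500 bp (35.4% of all genes). It also stayed at 5 with any base of a region (39.2%) or its strongest summit (38.3%) in place of the midpoint. At any listed start (41.8%) it was 5 as well. It was 6 within 2 kb (41.4%), with *Cldn6* added, and 6 at either end of the gene (39.9%), with *Cldn10* added. It fell to 3, *Cldn4*, *Cldn8* and *Cldn12*, among the 16006 regions with the lowest q-values (25.9% of all genes) and among those with an IDR score of 1000 (24.0%), since fewer regions were kept. All of these were epithelial, and neither *Cldn5* nor *Cldn11* had a 5′ region under any alternative on GRCm38. The settings of 500 bp, lowest q-values and IDR score 1000 can only remove genes, so they could not have added either gene. With 5′ ends of GRCm39, an alternative chosen after seeing the data, 0 of 10 members had one, beside 5.04% of all genes. The number with a region in the gene, 5, was 7 when any base counted (51.5% of all genes), and 2, *Cldn4* and *Cldn12*, among the regions with the lowest q-values (25.4%) and also with an IDR score of 1000 (23.4%).

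The 46 regions within 50 kb became 25 within 20 kb, 81 within 100 kb, 40 around the 5′ end alone, 20 with a member as the nearest 5′ end, 111 when every line was counted, 22 among the lowest q-values and 20 with an IDR score of 1000, as each setting holds fewer or more regions by construction. No paired analysis was possible because the list holds no values by sample, and for the same reason no sample could be left out. The weak 5′ regions of *Cldn1* and *Cldn3* rest on the full list. Depth, and so the limit below which a region would not be listed, is unknown.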
